A study of Mus musculus with 8 samples.

Results

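The genes described here are 9 entries of 23302 in a table of normalized RNA-seq counts from mouse spleen B cells, picked by symbol: Notch1, Notch2, Adam10, Rbpj, Maml1, Dtx1, Hes1, Cd36 and Cd1d1. The first 7 belong to the Notch pathway, and Cd36 and Cd1d1 are surface genes known from marginal zone B cells. All 9 were in the table and all 9 passed the filter on low values, so none is missing from the tests.

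Naive B cells came from spleens of C57BL/6 mice, and 8 libraries formed 4 groups of 2. WT nontumor and WT tumor were of WT genotype, and BEBi3-/- nontumor and BEBi3-/- tumor were of the genotype labelled B-EBi3-, without and with a tumor. Libraries whose tumor status reads WT were taken as tumor-free, although no label says so outright, and each tumor comparison depends on that choice. The series title names pancreatic cancer, while the tumor line, age, sex, and promoter behind the B cell deletion are not stated in these sources. Nor do the labels tie libraries to separate animals, so the p-values measure the spread between these libraries, which may be technical.

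Notch receptors bind a ligand on a neighbouring cell and are then cut, first outside the membrane by the protease ADAM10 and then within it by gamma-secretase. The freed intracellular part enters the nucleus and joins the DNA-binding protein RBPJ and a Mastermind coactivator such as MAML1 to switch on target genes. In the spleen, Notch2 is the receptor that B cells need to become marginal zone B cells, a population poised at the edge of the follicle to answer blood-borne antigen. Dtx1 and Hes1 are widely read as target genes of the pathway.

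Depth was 21291892 to 28297319 reads per library, and a member had 175 to 13128 reads in a library. Ebi3, a subunit of interleukin 27 and interleukin 35 and the targeted gene, had normalized counts of 8.94 and 11 in WT nontumor, 12.8 and 11.5 in BEBi3-/- nontumor, 8.7 and 11 in BEBi3-/- tumor, and 201 and 164 in WT tumor. It therefore separated the genotypes with a tumor and checked nothing without one. The B cell markers Cd79a and Ms4a1 were high in every library, at normalized counts of 45467 to 69999 and 41392 to 49896. The WT tumor libraries stood apart in 2 further respects. Their Xist values were 19758 and 26191 against 5.59 to 18.3 elsewhere, with Eif2s3y, Kdm5d and Uty at 0 reads, and they alone have titles starting with IV where the others start with OT. Sex and title prefix cannot be told apart from tumor status in WT, from genotype among tumor libraries, or from the interaction. The BEBi3-/- tumor libraries differed from each other by a median of 0.051 on the log2 scale, and the pairs of the other groups by 0.107 to 0.161.

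**Figure D1:**
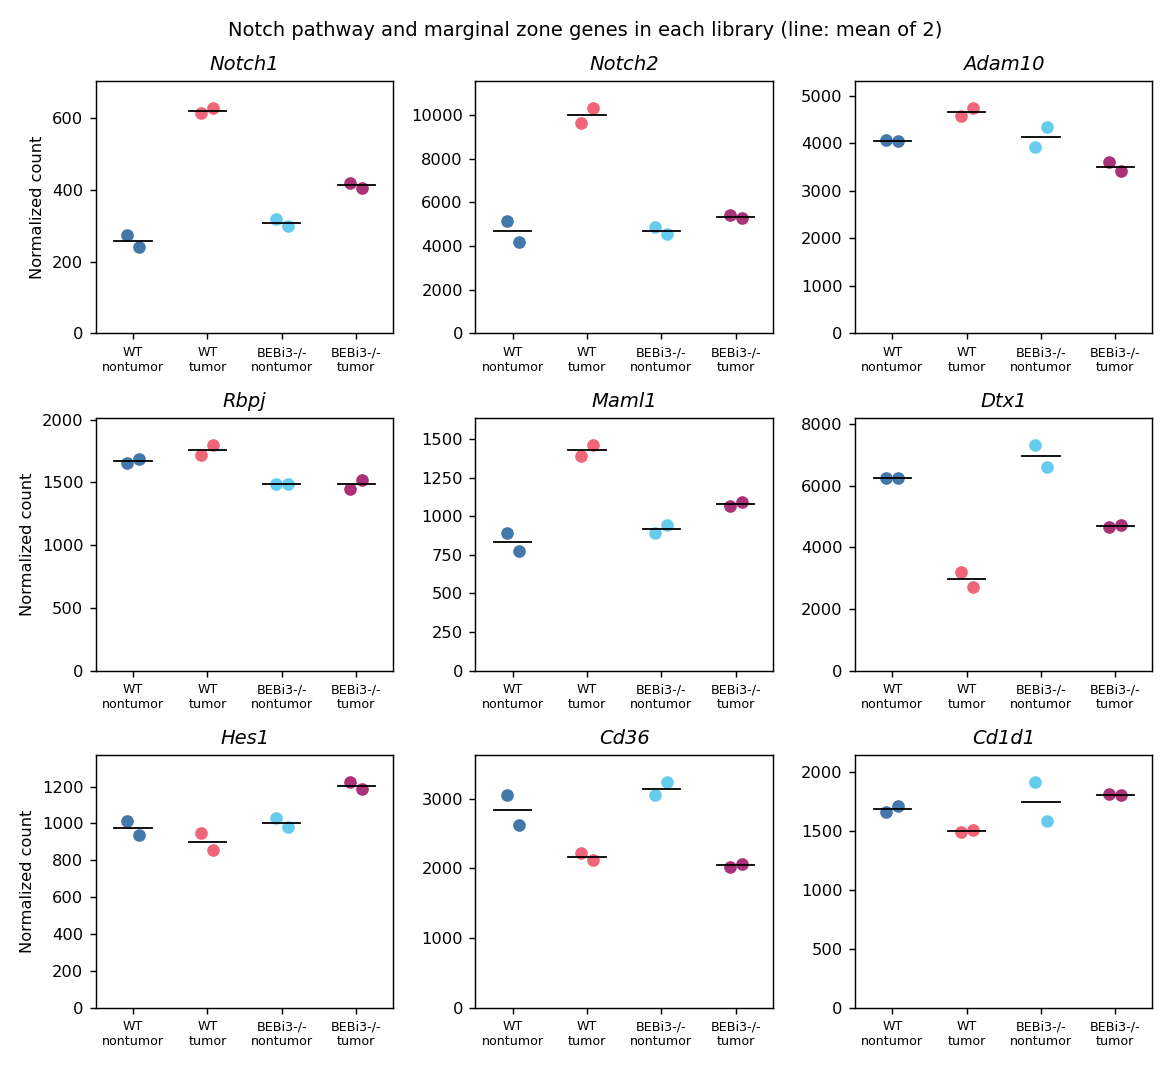
Normalized count (y axis, from 0) of each gene in each library, with 1 panel per gene, points for the 2 libraries of a group and a line at their mean. Notch1, Notch2 and Maml1 were highest in WT tumor, and Dtx1 was lowest there.

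In WT mice with a tumor, both receptors and the coactivator Maml1 were higher than in WT mice without one, while the target Dtx1 and the surface gene Cd36 were lower. Of the 9 genes, 4 rose (Notch1, Notch2, Adam10, Maml1), 2 fell (Dtx1, Cd36) and 3 (Rbpj, Hes1, Cd1d1) did not pass an adjusted p of 0.05 in limma. Across all 13011 genes tested, 79.8% passed in this comparison, 39.6% as higher and 40.1% as lower, so 6 calls among 9 genes are not read as a feature of these genes. Their median log2 difference was 0.07, against 0.01 over all tested genes. Differences are tumor minus nontumor on the log2(normalized count + 1) scale with limma's standard error. With a tumor in BEBi3-/- mice, 2 genes rose (Notch1, Hes1), 3 fell (Adam10, Dtx1, Cd36) and 4 did not pass. There the share of all genes called was 32.6%, with 14.1% higher and 18.5% lower, and the medians were 0.06 for the 9 genes and -0.008 overall.

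Both counts depend on how libraries are scaled, and the summed normalized counts were lower in WT tumor than in the other groups. Scaled to total reads instead, the median of all genes moved to 0.458 in WT and 0.169 in BEBi3-/-, and 7 of the 9 genes were higher and 1 lower in WT, with 4 higher and 2 lower in BEBi3-/-. In that scaling 10548 of all 13011 genes passed in WT and 5175 in BEBi3-/-. Of these calls in WT, 66.6% were higher, against 49.7% in the deposited scaling. In BEBi3-/- the shares were 73.7% and 43.4%, with 53.8% under quantile normalization. Read against that median, the differences of the 9 genes stay close to those given below. With trends on length and GC content removed from each library, 8 of the 9 passed in WT. Notch1, Maml1, Hes1 and Cd1d1 were higher, and Adam10, Rbpj, Dtx1 and Cd36 were lower. Of the 12167 tested genes with a length and GC value, 9087 passed there, 4832 as higher and 4255 as lower. These 8 calls are therefore not read as a feature of the 9 genes.

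All per-library values below are normalized counts, replicate 1 before replicate 2. Among the receptors, Notch1 read 273 and 240 in WT nontumor against 613 and 627 in WT tumor, and 318 and 298 in BEBi3-/- nontumor against 419 and 406 in BEBi3-/- tumor. No group overlapped another, and the lowest were the WT nontumor libraries. The tumor difference was 1.27 (SE 0.105, adjusted p = 7.85e-06), or 2.42-fold, in WT and 0.42 (SE 0.105, adjusted p = 0.02), or 1.34-fold, in BEBi3-/-. Leaving out BEBi3-/- nontumor replicate 2, BEBi3-/- tumor replicate 1 or BEBi3-/- tumor replicate 2 raised the adjusted p in BEBi3-/- to 0.0934, 0.136 or 0.112.

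Notch2, the receptor of the marginal zone lineage, read 5169 and 4188 in WT nontumor against 9653 and 10325 in WT tumor, and 4883 and 4535 in BEBi3-/- nontumor against 5418 and 5288 in BEBi3-/- tumor. The WT tumor libraries lay far above all others, the nontumor groups overlapped, and the BEBi3-/- tumor libraries lay just above both nontumor groups. The difference in WT was 1.10 (SE 0.102, adjusted p = 1.4e-05), or 2.15-fold, and in BEBi3-/- it was 0.19 (SE 0.102, adjusted p = 0.18). Tumor differences followed transcript length across genes, with a Spearman rho of 0.435 in WT and 0.251 in BEBi3-/-. Notch1, at 9488 bases, and Notch2, at 10500 bases, have the longest transcripts of the 9. With that trend and the one on GC content removed, the WT difference of Notch2 was 0.11 (adjusted p = 0.177) and that of Notch1 was 0.46 (adjusted p = 0.00164).

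Adam10, the protease of the first cut, read 4071 and 4041 in WT nontumor against 4562 and 4739 in WT tumor, and 3916 and 4335 in BEBi3-/- nontumor against 3599 and 3420 in BEBi3-/- tumor. It was highest in WT tumor and lowest in BEBi3-/- tumor, and the nontumor groups overlapped. The WT difference was 0.20 (SE 0.074, adjusted p = 0.0342) and the BEBi3-/- difference was -0.23 (SE 0.074, adjusted p = 0.0419). Both calls were close to the threshold, and neither held under every alternative. Leaving out any 1 of the 4 WT libraries lost the WT call, with differences of 0.17 to 0.22. Removing the length and GC trend turned the WT difference to -0.23 (adjusted p = 0.0289). The BEBi3-/- call was lost without BEBi3-/- nontumor replicate 2, BEBi3-/- tumor replicate 1 or BEBi3-/- tumor replicate 2. The differences were then -0.16, -0.27 and -0.20.

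In the nuclear complex, Rbpj, the DNA-binding partner of cut Notch, read 1651 and 1690 in WT nontumor against 1717 and 1796 in WT tumor, and 1487 and 1487 in BEBi3-/- nontumor against 1448 and 1517 in BEBi3-/- tumor. In the deposited scaling every WT library lay above every BEBi3-/- library. The WT tumor libraries lay above the WT nontumor libraries, while the BEBi3-/- groups overlapped. The tumor difference was 0.07 (SE 0.070, adjusted p = 0.363) in WT, where it became -0.51 (adjusted p = 0.000507) with the length and GC trend removed. In BEBi3-/- the ratio of tumor to nontumor was 0.997 (adjusted p = 0.961). Scaled to total reads, the tumor difference of Rbpj was 0.52 (adjusted p = 0.000154) in WT and 0.17 (adjusted p = 0.079) in BEBi3-/-. The median of all genes stood at 0.458 and 0.169 in that scaling.

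Maml1, the coactivator, read 891 and 778 in WT nontumor against 1393 and 1461 in WT tumor, and 893 and 942 in BEBi3-/- nontumor against 1069 and 1094 in BEBi3-/- tumor. No group overlapped another and both tumor groups lay above both nontumor groups. Its difference was 0.78 (SE 0.088, adjusted p = 4.76e-05), or 1.71-fold, in WT and 0.24 (SE 0.088, adjusted p = 0.068) in BEBi3-/-. The BEBi3-/- value passed under 5 alternatives: quantile normalization (adjusted p = 0.043), array weights (0.0447), the compared libraries alone (0.0483), edgeR (0.0481) and scaling to total reads (0.0125).

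The target Dtx1, an E3 ubiquitin ligase named Deltex, moved against both receptors in WT in the deposited scaling. In BEBi3-/- it fell while Notch2 did not pass. Dtx1 read 6246 and 6233 in WT nontumor against 3212 and 2709 in WT tumor, and 7312 and 6617 in BEBi3-/- nontumor against 4665 and 4731 in BEBi3-/- tumor. No groups overlapped, and both tumor groups lay below both nontumor groups. Dtx1 fell by 1.08 (SE 0.092, adjusted p = 9.08e-06) in WT, which is 2.11-fold, and by 0.57 (SE 0.092, adjusted p = 0.00394) in BEBi3-/-, which is 1.48-fold. Both calls held under every alternative tried, with -0.91 in WT and -0.49 in BEBi3-/- once the length and GC trend was taken out, and -0.63 and -0.39 when scaled to total reads.

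**Figure D2:**
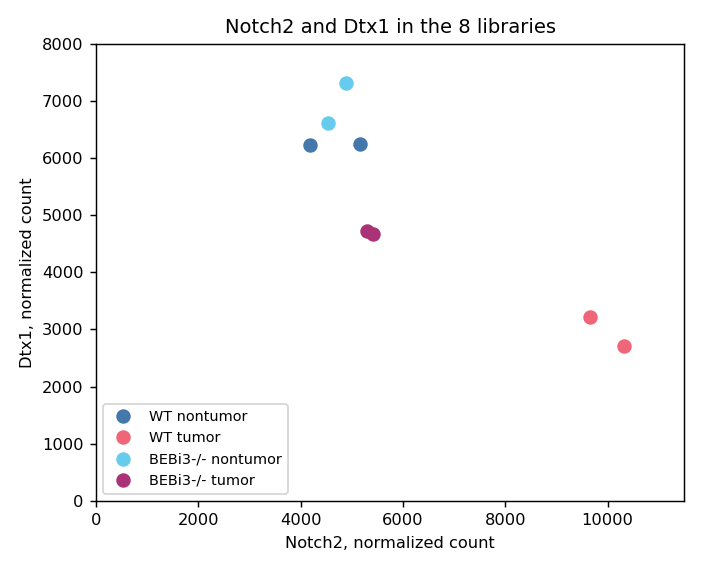
Dtx1 against Notch2, both as normalized counts, for the 8 libraries coloured by group. The WT tumor libraries sit alone at high Notch2 and low Dtx1, and the other groups share a narrow range of Notch2.

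The ratio of the Dtx1 value to the Notch2 value was 1.21 and 1.49 without a tumor and 0.333 and 0.262 with one in WT. In BEBi3-/- mice it was 1.5 and 1.46 without a tumor and 0.861 and 0.895 with one. These ratios are of deposited values and carry the length trend, as the Notch2 transcript has 10500 bases and that of Dtx1 4035. With the length and GC trend removed, the WT differences were 0.11 (adjusted p = 0.177) for Notch2 and -0.91 for Dtx1. The plot of Dtx1 against Notch2 shows the WT tumor libraries apart from the rest, so no correlation over the 8 libraries is given for this pair.

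Hes1, a transcriptional repressor and the other target, read 1013 and 938 in WT nontumor against 948 and 854 in WT tumor, and 1031 and 978 in BEBi3-/- nontumor against 1223 and 1186 in BEBi3-/- tumor. The BEBi3-/- tumor libraries stood clear, above all 6 others, and the WT groups overlapped. The WT difference was -0.12 (SE 0.086, adjusted p = 0.243), and the BEBi3-/- difference was 0.26 (SE 0.086, adjusted p = 0.0468). Without any 1 of the 4 BEBi3-/- libraries the adjusted p of the latter was 0.0531 to 0.228. With the length and GC trend removed, the WT difference turned to 0.67 (adjusted p = 0.000105), and it was 0.34 (adjusted p = 0.00811) when scaled to total reads.

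Of the surface genes, Cd36, a scavenger receptor for lipids, read 3057 and 2626 in WT nontumor against 2219 and 2113 in WT tumor, and 3047 and 3232 in BEBi3-/- nontumor against 2024 and 2060 in BEBi3-/- tumor. Both tumor groups lay below both nontumor groups without overlap. Cd36 fell by 0.39 (SE 0.086, adjusted p = 0.00269) in WT and by 0.62 (SE 0.086, adjusted p = 0.00187) in BEBi3-/-. The WT fall ended when libraries were scaled to total reads, where it was 0.06 (adjusted p = 0.51) while the median of all genes stood at 0.458. In the same scaling the BEBi3-/- difference was -0.44 (adjusted p = 0.00881), with the median of all genes at 0.169.

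Macrophages also express Cd36, and their markers were lower in the same libraries. The 13 monocyte and macrophage markers summed to 0.509% and 0.552% of reads in WT nontumor. In WT tumor they summed to 0.0679% and 0.06%, and all 13 fell. In BEBi3-/- the sums were 0.456% and 0.57% without a tumor and 0.305% and 0.303% with one, and 11 of 13 fell. The 10 erythroid markers, which summed to 0.624% to 1.56% without a tumor and 0.0887% to 0.301% with one, fell in both genotypes. Markers of other cells also fell in WT: 6 of 8 for platelets, 6 of 9 for T cells, 6 of 6 for NK cells, 7 of 8 for dendritic cells and 7 of 7 for granulocytes. In BEBi3-/- the counts were 0, 1, 0, 3 and 5. These counts are to be read beside the share of all tested genes that fell, 40.1% in WT and 18.5% in BEBi3-/-. As a share of reads, the T cell markers were not lower in WT tumor, at 0.0265% and 0.0257% against 0.0236% and 0.0219% in WT nontumor. The WT sums for platelets, NK cells, dendritic cells and granulocytes were lower with a tumor. None of the markers of these 7 lists was at 0 in both libraries of any group. Their part in the differences of Cd36 and of the other genes was not tested, and in bulk RNA fewer cells of a type and less RNA per cell cannot be told apart.

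Cd1d1, the lipid-presenting molecule that marginal zone B cells carry at a high level, read 1665 and 1709 in WT nontumor against 1491 and 1507 in WT tumor, and 1913 and 1582 in BEBi3-/- nontumor against 1810 and 1808 in BEBi3-/- tumor. The WT tumor libraries were the lowest and the BEBi3-/- nontumor pair spanned the WT nontumor and BEBi3-/- tumor pairs. The difference was -0.17 (SE 0.093, adjusted p = 0.121) in WT and 0.06 (SE 0.093, adjusted p = 0.653) in BEBi3-/-. The WT value turned to 0.36 (adjusted p = 0.00648) with the length and GC trend removed and to 0.28 (adjusted p = 0.0349) when scaled to total reads. Cd1d1 has a close copy, Cd1d2, with 1 to 28 reads per library, and reads of the copies may be split between them.

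**Figure D3:**
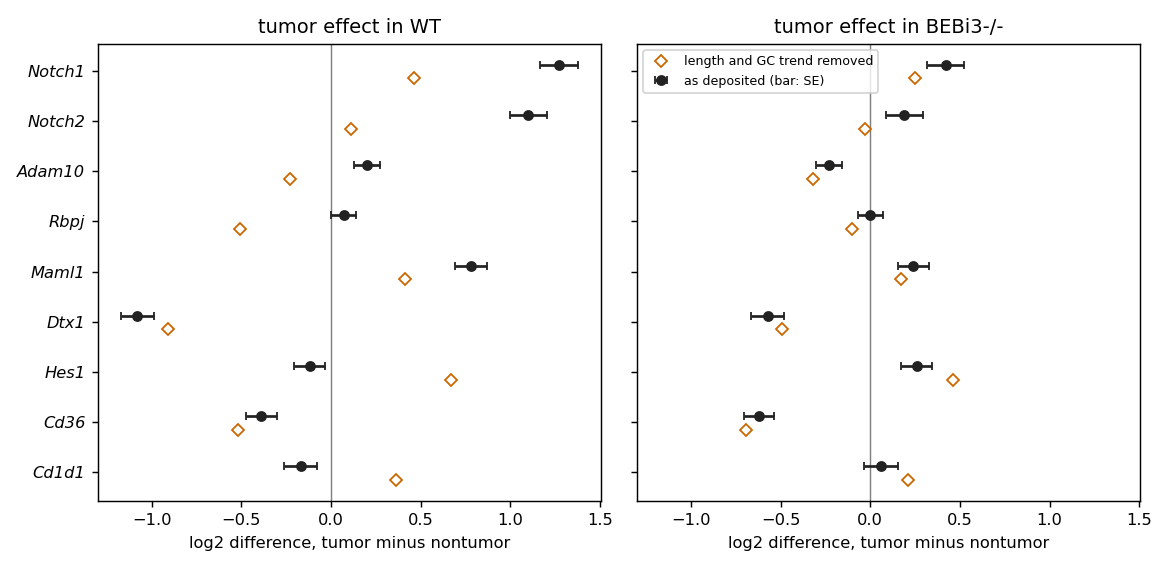
Difference between tumor and nontumor on the log2 scale (x axis) for each gene in WT (left) and BEBi3-/- (right), with filled points and SE bars from the deposited values and open diamonds after the trends on transcript length and GC content were removed from each library. Dtx1 and Cd36 lie below 0 in both panels by both measures, while Notch2 in WT moves from 1.10 to 0.11.

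Compared per kilobase of the longest annotated transcript, Dtx1 was the most abundant of the 9 in WT nontumor, at 1546 normalized counts per kb, followed by Adam10 at 883, Cd1d1 at 867 and Cd36 at 836. The libraries of Cd36 spanned the values of Adam10 and Cd1d1, so the order of these 3 is not resolved. Hes1 at 665, Notch2 at 446, Rbpj at 305, Maml1 at 151 and Notch1 at 27.0 followed. In WT tumor, Adam10 at 1013 and Notch2 at 951 led, and Dtx1 at 734 came after Cd1d1 at 770, with overlapping libraries. Notch2 exceeded Notch1 per kb in every library, by 17.1 and 15.8-fold in WT nontumor, by 14.2 and 14.9-fold in WT tumor, 13.9 and 13.8-fold in BEBi3-/- nontumor, and 11.7 and 11.8-fold in BEBi3-/- tumor.

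Promoters of the receptors, which rose in WT, and of Dtx1 and Cd36, which fell in both genotypes in the deposited scaling, are printed to show the bases around their starts. They run from 250 bases before to 50 after the RefSeq start (GRCm38.p6), 5′ to 3′ on the strand of the gene. Notch1 is at chr2:26503773-26504072 on the minus strand, Notch2 at chr3:98013288-98013587 on the plus strand, Dtx1 at chr5:120711620-120711919 and Cd36 at chr5:17835847-17836146, both on the minus strand. Capitals mark TGGGAA, the core letters that RBPJ binds, or their reverse complement TTCCCA.
Notch1: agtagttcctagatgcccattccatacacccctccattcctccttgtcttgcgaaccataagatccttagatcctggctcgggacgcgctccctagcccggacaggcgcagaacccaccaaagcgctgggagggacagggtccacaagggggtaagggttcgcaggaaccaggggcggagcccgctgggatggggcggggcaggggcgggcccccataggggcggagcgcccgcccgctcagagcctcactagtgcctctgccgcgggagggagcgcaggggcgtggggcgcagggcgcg
Notch2: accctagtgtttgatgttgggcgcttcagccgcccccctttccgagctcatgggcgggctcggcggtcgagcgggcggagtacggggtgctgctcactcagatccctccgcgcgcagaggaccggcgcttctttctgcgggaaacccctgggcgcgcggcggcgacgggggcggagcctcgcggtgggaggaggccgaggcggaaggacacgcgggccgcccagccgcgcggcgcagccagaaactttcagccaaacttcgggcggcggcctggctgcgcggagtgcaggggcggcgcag
Dtx1: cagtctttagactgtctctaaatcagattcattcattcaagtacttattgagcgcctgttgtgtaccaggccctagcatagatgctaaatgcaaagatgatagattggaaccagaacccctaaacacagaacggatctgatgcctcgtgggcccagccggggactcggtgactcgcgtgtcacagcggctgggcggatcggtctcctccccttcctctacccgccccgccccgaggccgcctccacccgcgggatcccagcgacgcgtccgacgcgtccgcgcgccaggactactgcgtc
Cd36: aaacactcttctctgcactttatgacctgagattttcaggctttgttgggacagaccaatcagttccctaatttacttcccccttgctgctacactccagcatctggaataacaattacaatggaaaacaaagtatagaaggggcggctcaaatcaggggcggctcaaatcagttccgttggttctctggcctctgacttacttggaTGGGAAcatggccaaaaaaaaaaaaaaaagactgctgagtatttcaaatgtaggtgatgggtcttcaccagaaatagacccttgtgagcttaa
The core was found once, in Cd36 and 43 bases before the start, and these letters are not in the other 3 windows. RefSeq promoters matched 7 of the 9 genes, Hes1 and Cd1d1 having no entry, and 3 of their 8 promoters held the core: Cd36 and both starts of Rbpj. The first Rbpj promoter holds it 149 and 65 bases before the start, and the second 205 bases before. Of 32851 promoters of the same length, 25.6% hold the core on either strand, and 6.38% hold the longer GTGGGAA, which contains it. A match describes letters and not binding. The genes themselves span chr2:26457903-26516663 (Notch1), chr3:98013527-98150361 (Notch2), chr5:120680202-120711927 (Dtx1) and chr5:17781690-17888801 (Cd36) in GRCm38, all protein-coding. The other members lie at chr9:70678997-70780229 (Adam10), chr5:53466152-53657362 (Rbpj), chr11:50255634-50292311 (Maml1), chr16:30064384-30067796 (Hes1) and chr3:86995834-86999441 (Cd1d1).

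Without a tumor, the genotype difference (BEBi3-/- minus WT) passed for 0 of the 9 genes and for 0.0% of all genes, with 0.0% higher and 0.0% lower in limma. At an unadjusted p below 0.05 limma gave 1049 genes, 2 of them members (Notch1 and Rbpj), while edgeR called 0 genes and DESeq2 called 21, none of them a member. Notch1 differed by 0.27 (95% interval 0.03 to 0.51, adjusted p = 0.604) and Rbpj by -0.17 (95% interval -0.33 to -0.01, adjusted p = 0.604). The intervals of the other 7 genes lay between -0.21 and 0.37 and each included 0.

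With a tumor, BEBi3-/- libraries had less receptor and coactivator RNA and more Dtx1 than WT libraries. Of the 9 genes, 3 were higher (Dtx1, Hes1, Cd1d1), 5 were lower (Notch1, Notch2, Adam10, Rbpj, Maml1) and Cd36 did not pass (-0.08, adjusted p = 0.414), with a median of -0.24 against -0.001 over all genes. In this comparison 60.5% of all genes passed, 31.9% as higher and 28.6% as lower, so that 52.8% of calls were higher, or 38% when scaled to total reads. Notch2 differed by -0.90 (SE 0.102, adjusted p = 0.000144), which is 1.86-fold lower, and Dtx1 by 0.67 (SE 0.092, adjusted p = 0.00036), which is 1.59-fold higher. Notch1 differed by -0.59 (adjusted p = 0.00148), Adam10 by -0.41 (adjusted p = 0.00158) and Maml1 by -0.40 (adjusted p = 0.00439). The other calls were Rbpj at -0.24 (adjusted p = 0.0146), Hes1 at 0.42 (adjusted p = 0.00299) and Cd1d1 at 0.27 (adjusted p = 0.0321). These 3 changed sign when the length and GC trend was removed, to 0.16, -0.09 and -0.05. Only Notch2 (-0.27, adjusted p = 0.00974) and Dtx1 (0.46, adjusted p = 0.000644) still passed, beside 5893 of 12167 genes. Markers of other cells were higher in the same BEBi3-/- tumor libraries: 13 of 13 for macrophages, 9 of 10 for erythroid cells, 7 of 7 for granulocytes, 6 of 6 for NK cells, 7 of 9 for T cells, 6 of 8 each for platelets and dendritic cells and 5 of 6 for plasma cells, and their part was not tested. Leaving out any 1 tumor library took Cd1d1 to an adjusted p of 0.11 to 0.128. Rbpj had 0.106, 0.128 and 0.0587 without WT tumor replicate 2, BEBi3-/- tumor replicate 1 and BEBi3-/- tumor replicate 2.

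The interaction asks whether the tumor difference itself differed between genotypes, and shares libraries with every comparison above. It passed for 6 genes, 2 higher (Dtx1, Hes1) and 4 lower (Notch1, Notch2, Adam10, Maml1), with 52.9% of all genes called, 27.5% higher and 25.4% lower, and with medians of -0.23 for the 9 genes and -0.013 overall. The difference between tumor differences was -0.92 (SE 0.144, adjusted p = 0.00121) for Notch2 and -0.85 (SE 0.149, adjusted p = 0.00192) for Notch1. Maml1 gave -0.54 (SE 0.125, adjusted p = 0.00706) and Adam10 gave -0.43 (SE 0.104, adjusted p = 0.00869). Dtx1 gave 0.51 (SE 0.130, adjusted p = 0.0102), since it fell further in WT, and Hes1 gave 0.38 (SE 0.122, adjusted p = 0.029). With the length and GC trend removed the 4 lower calls were lost and Dtx1 remained at 0.42 (adjusted p = 0.00801). Hes1 turned to -0.21 (adjusted p = 0.194), and Rbpj turned from -0.08 (adjusted p = 0.532) to 0.40 (adjusted p = 0.0264) and passed. In that setting 4855 of 12167 genes passed. Scaled to total reads, Dtx1 gave 0.24 (adjusted p = 0.153) and Hes1 gave 0.10 (adjusted p = 0.508). Rbpj at -0.35 (adjusted p = 0.0164) and Cd36 at -0.51 (adjusted p = 0.00897) then passed. The median of all genes moved to -0.285 and the share of calls that were higher from 52.0% to 33.3%. In DESeq2 Hes1 gave 0.38 (adjusted p = 0.068). The Hes1 call was lost without WT nontumor replicate 1, WT tumor replicate 2, BEBi3-/- nontumor replicate 2 or either BEBi3-/- tumor library (adjusted p 0.0569 to 0.121), and the Adam10 call without BEBi3-/- tumor replicate 2 (adjusted p = 0.0545). Cd36 passed without WT nontumor replicate 1 (-0.34, adjusted p = 0.0217) and Cd1d1 without BEBi3-/- nontumor replicate 1 (0.36, adjusted p = 0.0192).

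**Figure D4:**
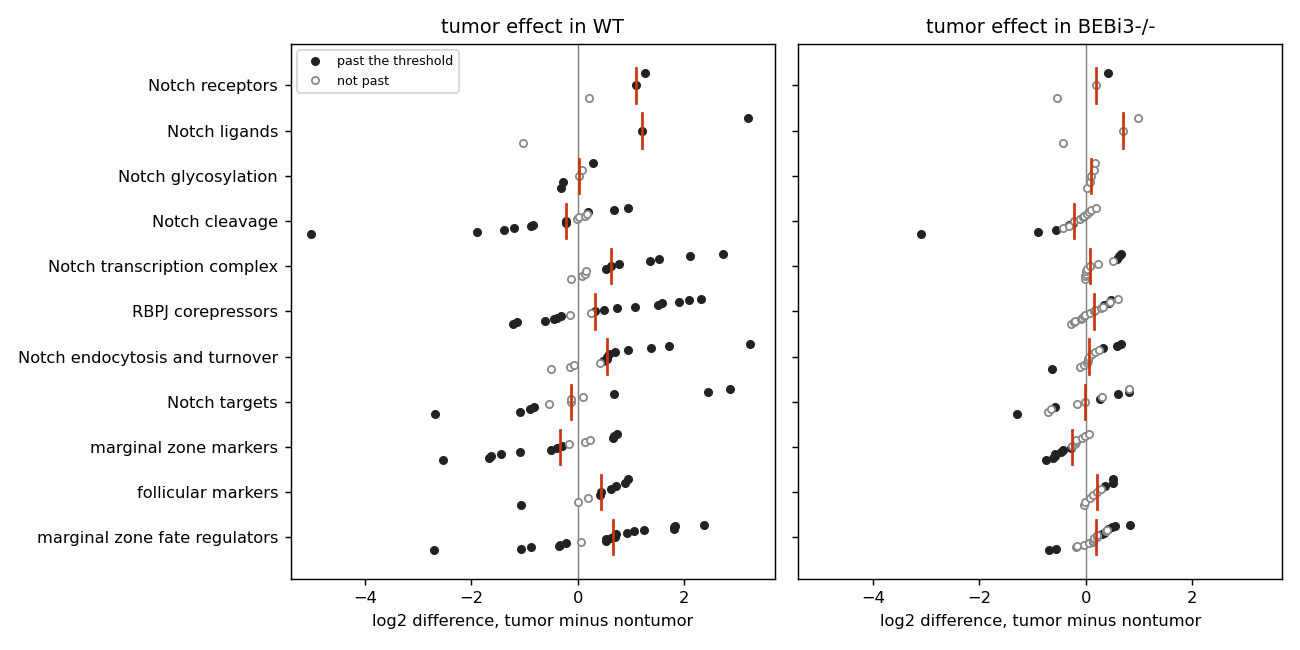
Difference between tumor and nontumor on the log2 scale (x axis) for every tested gene of 11 lists (y axis) in WT (left) and BEBi3-/- (right). Filled points passed an adjusted p of 0.05 and open points did not. Points spread more widely in WT, and marginal zone markers that passed in BEBi3-/- all lie below 0.

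In the wider pathway, counts of genes that passed are to be read beside the share over all genes. In the deposited scaling it was 39.6% higher and 40.1% lower in WT and 14.1% higher and 18.5% lower in BEBi3-/-. Scaled to total reads, 7023 of all 13011 genes were higher and 3525 lower in WT, and 3815 and 1360 in BEBi3-/-. With length and GC removed, 4832 of 12167 genes were higher and 4255 lower in WT. Of 11 transcription complex genes, 7 rose and 0 fell in WT (median 0.62), or 7 and 2 with length and GC removed (median 0.32), led by the acetyltransferases Ep300 at 2.11 and Crebbp at 2.72, with Maml2 at 1.36. In BEBi3-/- 3 rose and 0 fell (median 0.09), Ep300 at 0.63, Maml2 at 0.67 and Crebbp at 0.58. Among 17 corepressors of RBPJ, 9 rose and 6 fell in WT and 3 rose and 0 fell in BEBi3-/-. Scaled to total reads these counts were 10 and 2 in WT and 6 and 0 in BEBi3-/-. Spen, the scaffold of that complex, stood at 2.32 and 0.48. Of 13 genes of endocytosis and turnover, 9 rose and 0 fell in WT, or 8 and 3 with length and GC removed, among them the E3 ligases Cbl at 3.23 and Mib1 at 1.71 and the Notch degrader Fbxw7 at 1.37. In BEBi3-/- 3 of the 13 rose and 1 fell, with Fbxw7 at 0.67 and Nedd4 at -0.64.

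Upstream, 3 of 15 cleavage genes rose and 8 fell in WT (median -0.23), and 0 rose and 5 fell in BEBi3-/- (median -0.22). Scaled to total reads the WT counts turned to 9 higher and 6 lower, and the BEBi3-/- counts were 2 and 2. Tspan33, a tetraspanin that carries ADAM10, differed most, at -5.01 and -3.09. The 10 erythroid markers had medians of -4.13 in WT and -2.51 in BEBi3-/-. The part of other cells in the Tspan33 difference was not tested. Psenen, a gamma-secretase subunit, stood at -1.20 in WT. Of the 3 receptors tested 2 rose in WT and 1 in BEBi3-/-. Of 3 tested ligands 2 passed as higher in WT and none passed in BEBi3-/-. Dll1 stood at 1.20 in WT, and Dll3, with 4 and 1 reads in WT nontumor against 30 and 54 in WT tumor, reached the filter only through the WT tumor libraries, so its call is not read as a result. Of 5 glycosylation genes 1 rose and 2 fell in WT, and all 3 turned sign with length and GC removed: Pofut1 from 0.29 to -0.17, Mfng from -0.32 to 0.48 and Lfng from -0.28 to 0.35. None of the 5 passed in BEBi3-/-.

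Of 11 tested Notch targets, 3 rose and 4 fell in WT and 3 rose and 2 fell in BEBi3-/-, without a common direction. Il2ra, a receptor subunit for interleukin 2, stood at 2.45 and 0.82, and Hey1, a repressor of the Hes family, at -2.68 and -1.29. Hey1 had few reads, 25 and 37 in WT nontumor against 5 and 8 in WT tumor. Its reads were 26 and 33 in BEBi3-/- nontumor against 18 and 15 in BEBi3-/- tumor. Of 14 marginal zone markers 3 rose and 8 fell in WT (median -0.34), and 0 rose and 7 fell in BEBi3-/- (median -0.26), Dtx1 and Cd36 among those falling in both. Scaled to total reads the WT counts were 6 higher and 5 lower (median 0.11, all genes 0.458), and the BEBi3-/- counts were 0 and 6 (median -0.08, all genes 0.169). With length and GC removed the WT counts were 3 higher and 6 lower (median -0.10, all genes 0.06). The BEBi3-/- counts were then 0 and 7 (median -0.22, all genes 0.011). Asb2 stood at -2.53 and -0.75, and Mzb1, a plasma and marginal zone B cell chaperone, at -1.63 in WT. The 6 plasma cell markers summed to 0.11% and 0.0939% of reads in WT nontumor against 0.0314% and 0.0271% with a tumor, where 1 rose and 3 fell. In BEBi3-/- they summed to 0.0788% and 0.0693% without a tumor against 0.191% and 0.19% with one, and all 6 rose. Their part in the marginal zone counts was not tested. Cd9 stood at -1.68 (adjusted p = 1.01e-05) in WT and -0.18 (adjusted p = 0.357) in BEBi3-/-. Cr2, the complement receptor, ran the other way in WT, at 0.68 (adjusted p = 0.000801), but at -0.02 (adjusted p = 0.852) with length and GC removed. Of 9 follicular markers 6 rose and 1 fell in WT, with Foxo1 at 0.95, Cxcr5 at 0.62 and Klf2 at -1.06, and 3 rose and 0 fell in BEBi3-/-. Of 20 regulators of marginal zone fate 13 rose and 6 fell in WT, with Id2 at -2.70 and Mef2c at 1.24, and 6 rose and 2 fell in BEBi3-/-. Scaled to total reads, follicular markers gave 8 higher and 1 lower in WT and 7 and 0 in BEBi3-/-. Fate regulators gave 15 and 3 in WT and 15 and 2 in BEBi3-/-. In that scaling 7023 of all 13011 genes were higher and 3525 lower in WT, and 3815 and 1360 in BEBi3-/-. Without a tumor no gene of these lists passed between genotypes, while 1 fate regulator passed as higher with length and GC removed.

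For likeness of pattern over the 8 libraries, genes among the closest to Dtx1 by Pearson's r on the log2 scale were Cd59a at 0.997 and Abhd5 at 0.996. Closest to Notch2 were Ibtk at 0.999, Zfp800 at 0.998 and Nup160 at 0.998, and closest to Hes1 were Ypel3 at 0.973, Lat2 at 0.969 and B4galnt1 at 0.961. These values describe 8 libraries in 4 groups that share depth and library differences. The genes were picked for their high r, so its size is not read as a result. As for Notch2, the WT tumor mean stood apart for Ibtk (3150 against 2106 to 2258), Zfp800 (1765 against 939 to 1069) and Nup160 (2786 against 1389 to 1596). Their r with Notch2 therefore rests largely on the WT tumor libraries.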

How the data were processed

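Spleen B cell RNA was prepared as stranded, paired-end mRNA libraries, per the labels' protocols. Reads were quantified with Salmon on mm10 and normalized with DESeq2, per the submitters' processing notes (versions not given in the sources used here). Each deposited value is a normalized count signal that the authors gave per gene symbol and library. Divided by the library's smallest step, 100% of values were whole reads (tolerance 0.01), which gave depths of 21291892 to 28297319 reads. Genes averaging 10 or more, 13011 in all, were fitted as log2(value + 1) in limma 3.58.1 (R 4.3.3), with 1 mean for each of 4 groups, a variance trend, 4 residual and 4.64 prior degrees of freedom, two-sided tests and Benjamini-Hochberg adjustment within each of 5 comparisons. Called means an adjusted p below 0.05. edgeR 4.0.16 called 10435 and DESeq2 1.42.0 called 9687 genes in WT on the recovered reads, against 10378 in limma. The fit was tested on simulated data with far fewer changed genes than were called in the tumor comparisons. That test therefore does not bear on how libraries are scaled. The members and lists were chosen with earlier results of these data known. Up to 4 genes per list with the smallest p in a comparison are named; Cr2 and Cd9 in the tumor comparisons were added after values were seen. Lengths and annotation come from GENCODE M21, and 93.5% of tested genes had a length and GC value. Title numbers are shared between the WT groups but do not pair libraries, the correlation of deviations at equal numbers being -0.26. Alternatives covered pseudocount, filters, scaling, moderation, weights, tests, length and GC, the replicate block and each library left out. Some genes that these rules name are not reported here.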

Additional observations from a re-analysis of the deposited data

Results flagged for a closer look

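The tumor difference differed between genotypes by the interaction test of limma for 6 of the 9 genes. The BEBi3-/- minus WT value was -0.85 for Notch1, -0.92 for Notch2, -0.43 for Adam10, -0.54 for Maml1, 0.51 for Dtx1 and 0.38 for Hes1. The same test called 52.9% of all tested genes. These values all include the WT tumor libraries, whose sex-linked genes and title prefix differ from those of the other 6.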

How the results depend on the processing

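Scaling to total reads and the crossed block were alternatives chosen after seeing the data. Scaling to total reads moved the median of all genes by 0.458 in WT, 0.169 in BEBi3-/-, 0.09 and -0.19 between genotypes without and with a tumor, and -0.285 for the interaction. It gave 7 members higher and 1 lower in WT, 4 higher in BEBi3-/-, 1 higher between genotypes with a tumor and 0 higher for the interaction. Under it, 10548 of all 13011 genes passed in WT, 5175 in BEBi3-/-, 8195 between genotypes with a tumor and 7373 for the interaction. In WT it turned the sign of Hes1 to 0.34, Cd36 to 0.06, Cd1d1 to 0.28, Lfng to 0.17 and Mfng to 0.13.

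Removing the length and GC trend gave 4 members lower in WT and 1 higher in BEBi3-/-. It gave 1 gene called between genotypes without a tumor, 1 member higher and 1 lower with a tumor, and 0 lower for the interaction. It left 9087 of 12167 genes called in WT, 3923 in BEBi3-/-, 5893 between genotypes with a tumor and 4855 for the interaction. In WT it turned Adam10 to -0.23, Rbpj to -0.51, Hes1 to 0.67, Cd1d1 to 0.36, Cr2 to -0.02, Lfng to 0.35, Mfng to 0.48 and Pofut1 to -0.17. Between genotypes with a tumor it turned Rbpj to 0.16, Hes1 to -0.09, Cd1d1 to -0.05, Lfng to -0.16, Mfng to -0.13 and Rfng to -0.40. For the interaction it turned Rbpj to 0.40, Hes1 to -0.21, Foxo1 to 0.16, Lfng to -0.09 and Mfng to -0.11. A change of sign between values that never passed is not listed.

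For the tumor difference in BEBi3-/-, members higher went from 2 to 1 without a filter, with upper-quartile scaling, without the variance trend and in DESeq2, to 0 with the BEBi3-/- tumor libraries averaged, and to 0 to 1 with each library left out. All genes called there went from 4242 to 2375 without the variance trend, to 733 with those libraries averaged, and to 756 to 4827 with a library left out, the lower counts being 1213 without BEBi3-/- nontumor replicate 2, 788 without BEBi3-/- tumor replicate 1 and 756 without BEBi3-/- tumor replicate 2. Genes called between genotypes without a tumor went from 0 to 21 in DESeq2 and to 0 to 5 with a library left out. For the interaction, members higher went from 2 to 1 without the variance trend, with averaging and in DESeq2, and to 1 to 3 with a library left out. The cause was not tested.

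The replicate block on the title numbers of the 4 WT libraries left 3 members higher and 2 lower, with 9305 genes called against 10378, and ended the call of Adam10 (adjusted p = 0.254). The crossed block left 4 higher and 3 lower, with 10678 genes called. Other limits are the 2 libraries per group and the reading of the nontumor label.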

Other observations

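Rbpjl, a relative of Rbpj known from the pancreas, was looked at after its values were seen. It had 2 and 5 reads in WT nontumor against 41 and 44 in WT tumor, and 2 and 3 in BEBi3-/- nontumor against 2 and 1 in BEBi3-/- tumor. The WT tumor libraries stood apart from the other 6. These are few reads and no test is given. Cd1d2, the close copy of Cd1d1, had 5 and 2 reads in WT nontumor against 27 and 28 in WT tumor, and 2 and 1 in BEBi3-/- nontumor against 11 and 9 in BEBi3-/- tumor. Both tumor groups had more reads of it than either nontumor group.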
